A study of Bubalus bubalis with 6 samples.

Results

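The probes described here are the array's CpG-free probes: 60-base DNA probes on the autosomes that hold no C followed by G and whose input DNA rose well above background on each of the 6 arrays. They number 4667 of 177440 probes. Of 17475 CpG-free probes on the array, 17258 lay on autosomes and 217 did not, and the input requirement then kept 27.04% of the autosomal ones, against 66.5% of the autosomal probes with at least 1 CpG. A non-uniformity flag removed 17 more, so 4650 CpG-free probes entered the comparisons beside 105968 autosomal probes with CpGs (called CpG-bearing), among 110686 probes tested in all.

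The arrays came from a study of sperm DNA of buffalo (Bubalus bubalis) bulls, with 3 high-fertile bulls (2, 3, 5) set against 3 subfertile bulls (1, 4, 5), 1 array per bull. The array is a custom design of CpG islands and promoters. The DNA came from cryopreserved semen, was sheared to fragments of 300 to 1000 bp, and was pulled down with an antibody against 5-methylcytosine. On each array the immunoprecipitated DNA (IP, Cy5) was set against the bull's own input DNA (Cy3), and every value below is log2(IP/input), which is 0 at the median of all non-control probes of that array. The labels give no ages or breeds and do not say how fertility was scored. The cell type cannot be checked by marker genes, because the arrays measured DNA. By the scan dates in the file headers, the first date covers subfertile bull 4 with high-fertile bulls 2 and 3. The later dates cover subfertile bulls 1 and 5 with high-fertile bull 5, so both sets of dates hold both groups. The headers of subfertile bull 1 name a different extraction protocol of the scanner software from those of the other 5 arrays.

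In mammals most 5-methylcytosine sits in CpG pairs, and an antibody pull-down recovers whole DNA fragments rather than single bases. A probe with no CpG of its own therefore reads fragments whose methylated cytosines, if any, lie mostly in the flanking DNA. CpG-free stretches are common in mammalian genomes because methylated cytosine turns into thymine by deamination, which leaves TpG on that strand and CpA on the other. Such a probe is thus a readout of the pull-down's background and of the DNA around it.

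To show what such probes look like, 7 probes with a gene name follow. Among the named ones they rank first in one of the comparisons described further on, or next to first for TRPC6, while probes without a name can rank higher. Capitals mark TpG and CpA, the pairs that deamination of a methylated CpG leaves. Sequences are those of the array files, read in the direction of rising coordinates, and for the coordinates no genome build is named in the sources used here. The autosomes are numbered 1 to 29, and the array's design text names Bos taurus (cattle) beside buffalo. Whether buffalo DNA holds the same bases, CpGs and positions as the probes was not tested.
ATM, chr15:17101133-17101192: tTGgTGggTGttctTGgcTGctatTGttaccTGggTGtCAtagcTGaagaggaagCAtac
TRPC6, chr15:6021537-6021596: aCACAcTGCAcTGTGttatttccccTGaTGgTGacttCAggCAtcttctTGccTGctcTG
CSNK2B, chr23:27437869-27437928: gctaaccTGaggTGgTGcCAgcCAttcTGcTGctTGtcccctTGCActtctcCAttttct
LRRC7, chr3:80674335-80674394: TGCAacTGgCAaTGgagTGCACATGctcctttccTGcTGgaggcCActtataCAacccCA
PIH1D2, chr15:20620810-20620869: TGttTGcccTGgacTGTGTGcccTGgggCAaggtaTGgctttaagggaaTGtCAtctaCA
KIF3B, chr13:62648074-62648133: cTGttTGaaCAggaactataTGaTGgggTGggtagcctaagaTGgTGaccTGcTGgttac
HOXA9, chr4:71610277-71610336: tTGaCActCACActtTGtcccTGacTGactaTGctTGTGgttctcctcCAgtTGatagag

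These 7 probes held between 10 and 14 TpG or CpA pairs each. Over all 4650 tested CpG-free probes the count was 9.63 ± 2.41 (mean ± SD over probes), against 7.84 ± 2.37 in CpG-bearing probes. Their GC content was similar, with a median of 50% (range 35.0% to 53.3%) against 51.7% in CpG-bearing probes. Over all 17258 autosomal CpG-free probes, whatever their input signal, the median was 43.3%.

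The array carries CpG-free probes in 2 settings, and the values differed so much between them that they are described apart. This split was made only once the values had been seen. Of the tested CpG-free probes, 3577 were tiled, meaning that the centre of at least 1 other probe lay within 300 bp. The nearest CpG held by any probe was a median of 8 bases from their edge. The other 1073 were isolated, with no other probe that close. For those the nearest CpG on the array was a median of 14401 bases away, although the array does not cover the DNA between, so nearer CpGs may exist. A gene name was given to 64.9% of isolated and 7.88% of tiled CpG-free probes. Isolated probes made up 23.1% of the CpG-free probes and 3.68% of the CpG-bearing ones. The tiled CpG-free probes overlap heavily, and all 4650 fall into 2499 loci of overlapping members, so neighbouring probes are not independent readings.

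The first question was whether probes without a CpG gave a lower ratio than probes with CpGs, as their own sequence offers the antibody no CpG. On the first scan date they were the highest class instead. The median log2(IP/input) of CpG-free probes was -0.08 in high-fertile bull 2, 0.09 in high-fertile bull 3 and -0.01 in subfertile bull 4, and it fell with each further CpG to -0.54, -0.56 and -0.55 in probes with 7 or more. On the later dates the CpG-free probes stood at -0.10 in high-fertile bull 5, -0.08 in subfertile bull 1 and -0.16 in subfertile bull 5. In those 3 bulls the highest class was the probes with 2 CpGs, at 0.04, 0.01 and -0.05, and probes with 7 or more lay at -0.19, -0.12 and -0.30. The difference CpG-free minus CpG-bearing was 0.29 ± 0.06 (mean ± SD, n = 3 bulls) on the first date versus -0.07 ± 0.01 (n = 3) on the later dates, positive in each bull of the first and negative in each bull of the second. The later-date difference was small and moved with the processing: it was -0.018 ± 0.027 with normexp background correction, in place of the scanner's processed signals, and -0.019 ± 0.11 without the input requirement, both within 1 SD of 0. Over 6 bulls the difference was 0.11 ± 0.21, within 1 SD of 0, and no test was run on this summary.

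**Figure D1:**
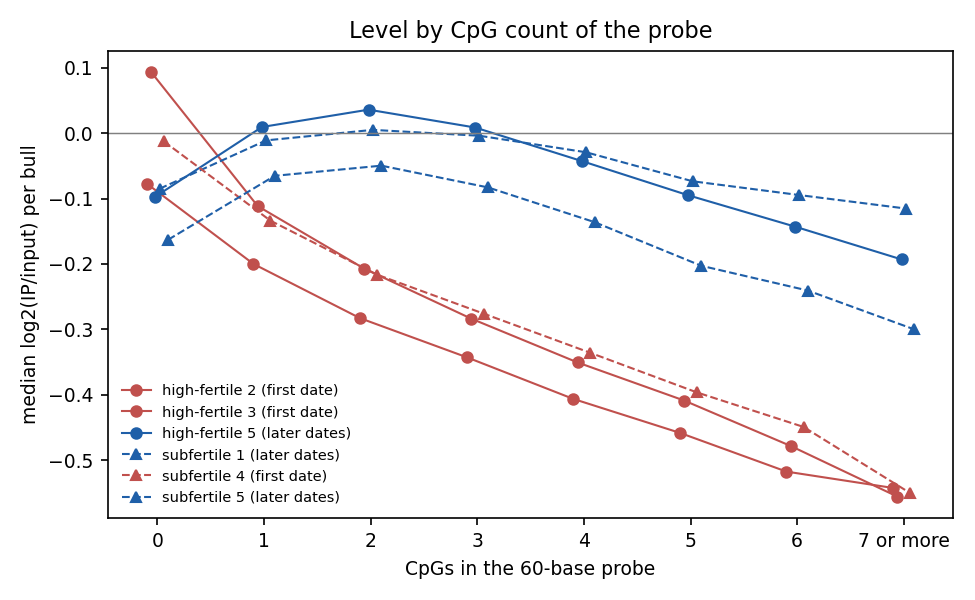
Median log2(IP/input) of tested autosomal probes (vertical axis) against the number of CpGs in the probe (horizontal axis), 1 line per bull, red for the first scan date and blue for the later dates, circles with solid lines for high-fertile and triangles with dashed lines for subfertile bulls. The red lines fall from 0 CpGs onward, whereas the blue lines are highest at 2 CpGs.

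The same signs appeared at matched GC content. Among probes with 40% to under 50% GC the CpG-free minus CpG-bearing difference was 0.34 ± 0.08 on the first date versus -0.09 ± 0.02 on the later dates, and with 50% to under 60% GC it was 0.23 ± 0.03 and -0.05 ± 0.01 (n = 3 bulls each). The 77 CpG-free probes under 40% GC gave 0.29 ± 0.07 and -0.20 ± 0.09. When probes were matched on input brightness instead, in 4 classes, the first-date difference was positive in each, at 0.24 ± 0.08, 0.26 ± 0.05, 0.20 ± 0.02 and 0.20 ± 0.03 from the dimmest to the brightest. The later-date difference was -0.23 ± 0.06, -0.08 ± 0.01, 0.0035 ± 0.0080 and -0.02 ± 0.01 in the same order. In the third class it was thus not negative, with subfertile bulls 1 and 5 slightly above 0. The later-date difference was furthest from 0 in the dimmest class, and the part of input brightness in it was not tested. CpG-free probes just outside the input requirement, with input well above background on 5 of the 6 arrays (1268 probes, 1267 without a flag), were dim on a first-date array in 1023 cases and on a later one in 245. As the input is the denominator, this choice is not independent of the ratio, and its part in the first-date ratios was not tested. Their medians were 0.38, 0.53 and 0.40 in the first-date bulls 2, 3 and 4 and -0.24, -0.18 and -0.19 in the others (high-fertile 5, subfertile 1 and 5). Members just inside it, the dimmest of those 4 classes, stood at 0.22, 0.53 and 0.23 and at -0.30, -0.20 and -0.25.

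The contrast between dates was larger in isolated than in tiled CpG-free probes. The isolated probes' median was 0.11 in high-fertile bull 2, 0.59 in high-fertile bull 3 and 0.29 in subfertile bull 4, all above the array median. On the later dates it was -0.57 in high-fertile bull 5, -0.38 in subfertile bull 1 and -0.49 in subfertile bull 5, all below. Tiled CpG-free probes stayed near 0 in each bull, at -0.13, -0.03 and -0.08 on the first date versus 0.01, -0.01 and -0.06 on the later dates in the same order. Isolated minus tiled was 0.41 ± 0.19 on the first date versus -0.46 ± 0.11 on the later dates (n = 3 each). Named isolated probes (696) and unnamed ones (377) gave the same signs in every bull. The 282 tiled probes with a gene name leaned the same way as isolated ones in 5 of 6 bulls, with -0.10, 0.26 and 0.12 on the first date versus -0.26, -0.16 and -0.24 on the later dates.

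This difference shrank as the CpGs in the probe rose to 3, and beyond 3 its signs did not hold. With 1 CpG, isolated minus tiled was 0.34 ± 0.12 on the first date versus -0.32 ± 0.09 on the later dates. With 2 CpGs it was 0.14 ± 0.05 and -0.17 ± 0.04, and with 3 CpGs 0.06 ± 0.02 and -0.02 ± 0.0043 (n = 3 bulls each). With 4 CpGs it was -0.03 ± 0.06 and -0.02 ± 0.04, and with 5 or more -0.03 ± 0.05 and 0.09 ± 0.01. Isolated CpG-free minus isolated CpG-bearing probes came to 0.48 on the first date versus -0.32 on the later dates. Matched on input brightness the differences were smaller in the dim classes, which hold most isolated CpG-free probes. In the dimmest (484 of them) the difference was 0.08 ± 0.12 on the first date, below 0 in high-fertile bull 2, versus -0.20 ± 0.02 on the later dates. In the second class (328) it was 0.18 ± 0.11 and -0.22 ± 0.07, in the third (183) 0.42 ± 0.19 and -0.23 ± 0.03, and in the brightest (78) 0.37 ± 0.07 and -0.20 ± 0.04. Without the input requirement the unmatched difference was 0.80 and 0.033, so the later-date sign turned. Among the 322 isolated CpG-free probes with IP signal well above background on each array, the medians were 0.32, 0.83 and 0.54 on the first date versus -0.38, -0.23 and -0.33 on the later dates.

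**Figure D2:**
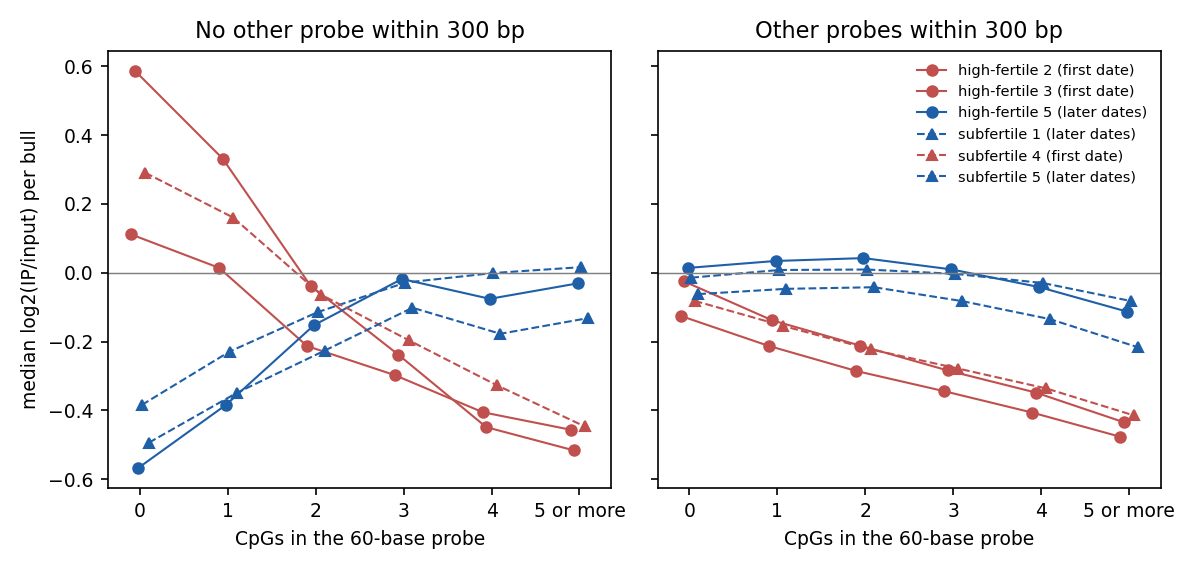
Median log2(IP/input) per bull (vertical axis) against CpGs in the probe (horizontal axis) for probes with no other probe within 300 bp (left) and for tiled probes (right), with colours for the scan dates and symbols for the fertility groups as labelled. Isolated CpG-free probes lie between 0.11 and 0.59 on the first date, then between -0.57 and -0.38 on the later dates, while the tiled ones lie between -0.13 and 0.01.

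Both colours differed between the dates. Set against the median of all tested probes, the input signal of isolated CpG-free probes stood at log2 values of -1.16, -1.59 and -1.34 in the first-date bulls (high-fertile 2 and 3, subfertile 4) and of -0.84, -0.72 and -0.90 in the later-date bulls (high-fertile 5, subfertile 1 and 5). Their IP signal stood at -0.52, -0.53 and -0.61 on the first date versus -1.42, -1.10 and -1.43 on the later dates. In input the isolated probes were thus dimmer on the first date, and in IP they were dimmer on the later dates, with no overlap between the dates in either colour. The share of CpG-free probes with IP signal well above background was also lower on the first date, at 50.3%, 85.5% and 66.7% against 86.5%, 99.6% and 91.4%. In CpG-bearing probes it was 59.6%, 88.1% and 74.0% against 96.4%, 99.9% and 97.4%. The part of IP brightness in the date difference was not tested.

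Far from the nearest CpG on the array the dates also stood apart, though not in even steps. These far classes largely repeat the isolated probes. Of the 1268 CpG-free probes over 300 bases from a CpG on the array, 1065 were isolated and 203 tiled. Distance and isolation were therefore not told apart here. The 2025 CpG-free probes with a CpG at most 10 bases beyond their edge and the 831 with one over 10 and up to 30 bases away had medians between -0.16 and 0.04 in the 6 bulls. Over 30 and up to 100 bases (352 probes) the first-date bulls stood at -0.11, 0.03 and -0.0032 and the later-date bulls at -0.15, -0.09 and -0.16, a small gap in means, with overlap between the dates. Over 100 and up to 300 bases (174 probes) all 6 medians lay between -0.01 and 0.04, the closest the bulls came to each other. Over 300 and up to 2000 bases (289 probes) the first-date bulls stood at 0.05, 0.28 and 0.17 and the later-date bulls at -0.27, -0.17 and -0.25. Over 2000 and up to 20000 bases (471 probes) they were at 0.05, 0.47 and 0.24 and at -0.44, -0.36 and -0.51. Beyond 20000 bases (508 probes) the values were 0.23, 0.76 and 0.35 against -0.57, -0.35 and -0.46.

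**Figure D3:**
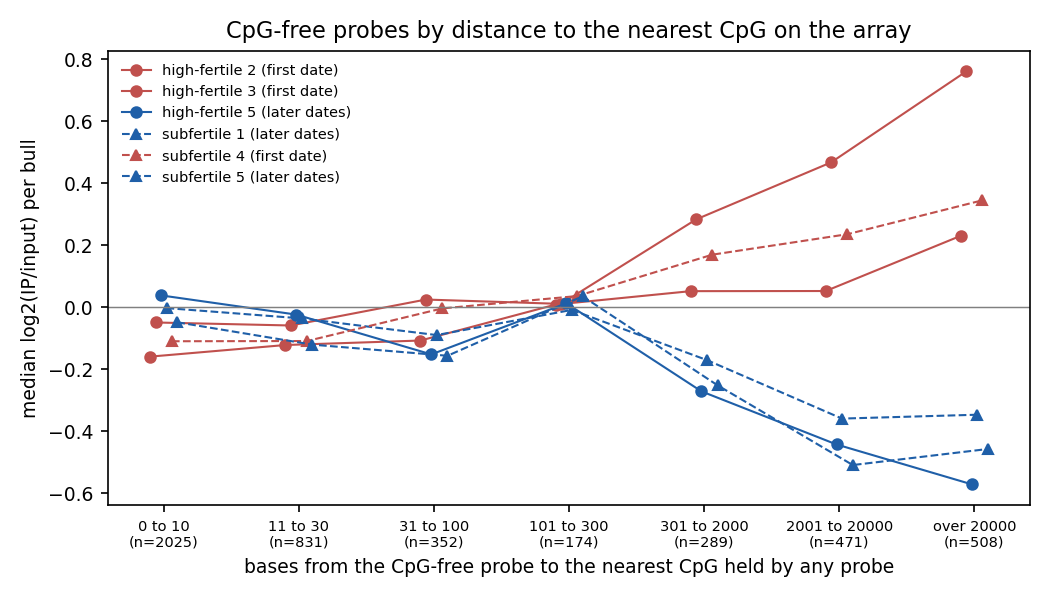
Median log2(IP/input) of CpG-free probes per bull (vertical axis) by the distance in bases to the nearest CpG held by any probe (horizontal axis, n = probes in each class), with colours for scan dates and symbols for fertility groups. The 6 bulls meet in the class that ends at 300 bases and part beyond it, the first date upward and the later dates downward. Of the probes beyond 300 bases, 1065 are isolated and 203 tiled.

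Within tiles, CpG-free probes whose neighbours also lacked CpGs read higher than those among CpG-rich neighbours, on both dates. With no CpG in any neighbour within 300 bp (215 probes) the medians were 0.08, 0.21 and 0.11 on the first date versus 0.13, 0.05 and 0.13 on the later dates. With more than 3 CpGs per neighbour on average (96 probes) they were -0.16, -0.11 and -0.19 and then -0.03, -0.03 and -0.11. The difference was -0.22 ± 0.09 (mean ± SD, n = 6), negative in 6 of 6 bulls. On the later dates the sign depended on the distance used: with neighbours counted within 1000 bp the difference was -0.43 on the first date versus 0.12 on the later dates.

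Overlapping probes gave the closest comparison of sequence with and without a CpG, because they are read by nearly the same fragments. For 1451 CpG-free probes a tested CpG-bearing probe began at most 10 bases away, and 1382 of these partners held a single CpG. A pair on chromosome 23 is shown, chosen after its values were seen because its differences lie nearest to the medians in all 6 bulls. By this choice it is an even pair, with an SD of 0.11 over bulls for its difference. Other pairs ranged widely, for example from 0.04 at MIR136 to 1.32 at NKX2-2. The CpG-free probe is in lower case throughout, and capitals mark the CpG of its partner, which begins 4 bases earlier.
CpG-free, chr23:52614885-52614944: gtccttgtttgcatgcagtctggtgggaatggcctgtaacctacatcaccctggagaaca
CpG-bearing, chr23:52614881-52614940: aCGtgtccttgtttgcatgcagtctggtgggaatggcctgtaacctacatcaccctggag

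The CpG-free probe of this pair read -0.13, -0.26, 0.50, 0.08, -0.25 and 0.20 (high-fertile bulls 2, 3 and 5, then subfertile bulls 1, 4 and 5), and its partner -0.11, -0.44, 0.32, 0.09, -0.15 and 0.18. Over all 1451 pairs the median difference, CpG-free minus CpG-bearing, was 0.03, 0.09 and 0.01 for the first-date bulls (2 and 3 high-fertile, 4 subfertile) and 0.05, 0.03 and 0.04 on the later dates, 0.04 ± 0.03 over 6 bulls. The CpG-free probe was the higher in 50.8% to 57.2% of pairs. Both colours were dimmer at the CpG-free probe, by a median log2 difference of -0.26 to -0.15 in input and -0.26 to -0.08 in IP. Across pairs the correlation of the partners' ratios ran from 0.34 (high-fertile bull 2) to 0.80 (subfertile bull 1), where partners share most of their bases and the array. At this distance the ratios of the CpG-free probe and its partner differed by at most 0.09 in the median of any bull.

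Per probe, the scan dates were compared with limma (later minus first dates, with the fertility group as a term and Benjamini-Hochberg adjustment over 110686 probes, threshold 0.05). Of 4650 CpG-free probes, 161 (3.46%) were called higher on the later dates, where 6.5% of all tested probes were, and 369 (7.94%) were called lower, where 1.58% of all tested probes were. Isolated CpG-free probes gave 9 higher and 264 lower calls of 1073 (24.6% lower), and tiled ones 152 and 105 of 3577. Isolated CpG-bearing probes gave 226 and 403 of 3900 (10.3% lower). The 369 lower calls are 21.1% of all lower calls on the array, although CpG-free probes are 4.2% of the probes tested. The 369 probes had medians of 0.91 on the first date versus -0.75 on the later dates, as means of the bulls' medians.

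These calls needed nearly every array. Without high-fertile bull 5, or without subfertile bull 1, 4 or 5, no CpG-free probe was called by limma, and without high-fertile bull 2 or 3 there were 1076 and 513 calls in place of 530. These counts are of CpG-free probes alone, and the share over all tested probes is not given for them. In a count without a model, the later arrays lay wholly below the first-date arrays at 991 CpG-free probes (21.3%) and wholly above at 859 (18.5%). The 3 later arrays lay wholly below the 3 first-date arrays at 505 isolated CpG-free probes (47.1%), where the share over all tested probes was 7.77%, and wholly above at 30 (2.80%), where it was 31.9%. Tiled CpG-free probes were wholly below at 486 (13.6%) and wholly above at 829 (23.2%).

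The split of calls moved with the centring. Centring on all probes left the tested probes at medians of -0.33 to -0.26 on the first date versus -0.10 to -0.01 on the later dates, a shift of 0.24 between dates. With each array centred on the tested probes the CpG-free calls were 32 higher and 369 lower. Over all tested probes the calls moved from 7194 higher and 1747 lower to 1115 and 1819. The isolated CpG-free probes then lay wholly below on the later dates at 60.02%, against 15.3% of all tested probes. Arrays of a date also resembled each other: over isolated CpG-free probes the correlation of 2 arrays was 0.34 to 0.63 within a date and -0.09 to 0.25 between dates, as a description.

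**Figure D4:**
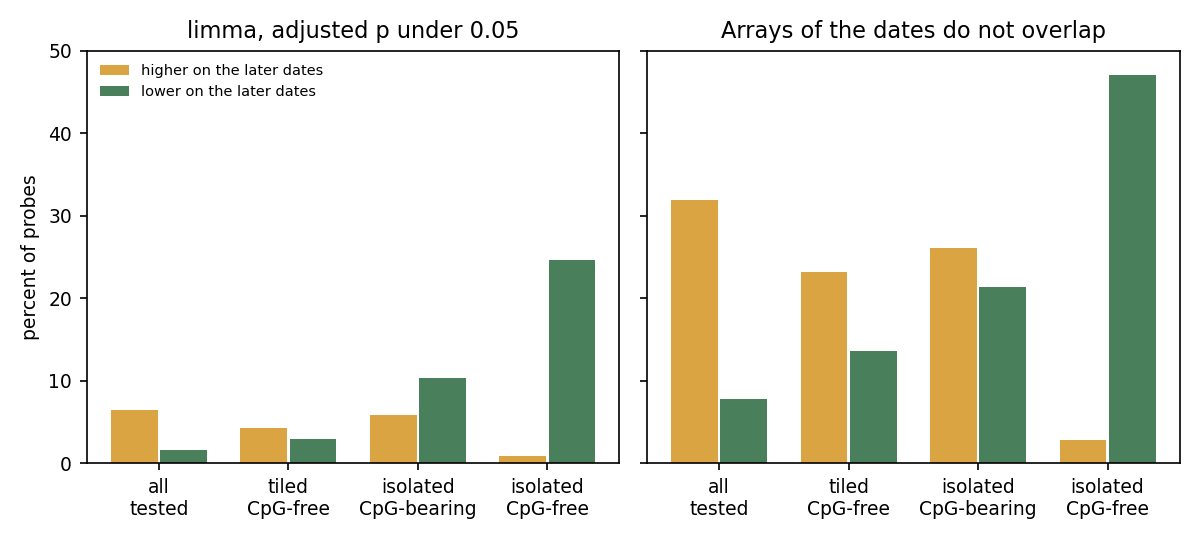
Percent of probes (vertical axis) higher or lower on the later scan dates for all tested probes and 3 classes, called by limma at an adjusted p under 0.05 (left) or with 3 later arrays wholly beyond 3 first-date arrays (right). In isolated CpG-free probes the lower bars reach 24.6% and 47.1%, against 1.58% and 7.77% of all tested probes.

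Gene names stood on 978 tested CpG-free probes, 696 of them isolated (907 different names, 734 of them in the RefSeq gene table of buffalo). Of these probes 217 were called lower and 11 higher on the later dates. Among the named probes the largest fall was at ATM, the kinase that responds to DNA double-strand breaks. Its probe, whose nearest CpG on the array was 6904 bases away, read 2.03 in high-fertile bull 2, 2.86 in high-fertile bull 3 and 2.28 in subfertile bull 4, and then -2.29 in high-fertile bull 5, -0.58 in subfertile bull 1 and -0.95 in subfertile bull 5. The dates were far apart, and the later-minus-first difference was -3.89 ± 0.42 (SE; limma adjusted p = 0.027).

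TRPC6, a calcium-permeable channel, read 1.09, 2.62 and 2.22 on the first date versus -2.15, -1.01 and -1.16 on the later dates in the same order of bulls. Its difference was -3.66 ± 0.42. LYST, a regulator of lysosome trafficking, fell by 3.51 ± 0.41 and C1H3orf1 by 3.39 ± 0.39 (limma adjusted p = 0.027 for each of the 3). In high-fertile bull 5 the IP signal of these 4 probes was not well above background. Without any single bull the 4 differences lay between -4.73 and -2.74. With normexp they were smaller, at -1.40, -1.32, -1.07 and -1.22, and still called by limma.

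The largest rises were smaller and came mostly from tiled probes. CSNK2B, the regulatory subunit of casein kinase 2, read -1.19, -1.59 and -1.21 on the first date versus 0.62, 0.44 and 0.16 on the later dates. Its difference was 1.76 ± 0.27 (limma adjusted p = 0.028), with 18 other probes within 300 bp. PDGFRL, a protein related to the platelet-derived growth factor receptor, rose by 1.45 ± 0.24 (limma adjusted p = 0.028). At KCNK5, a potassium channel, and at LOC100336279 no first-date array had IP signal well above background, so their rises of 1.42 and 1.34 compare with bounds. With normexp those of CSNK2B and PDGFRL were 1.64 each, whereas those of KCNK5 and LOC100336279 were 0.29 and 0.20 and not called by limma (adjusted p = 0.13 and 0.40).

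**Figure D5:**
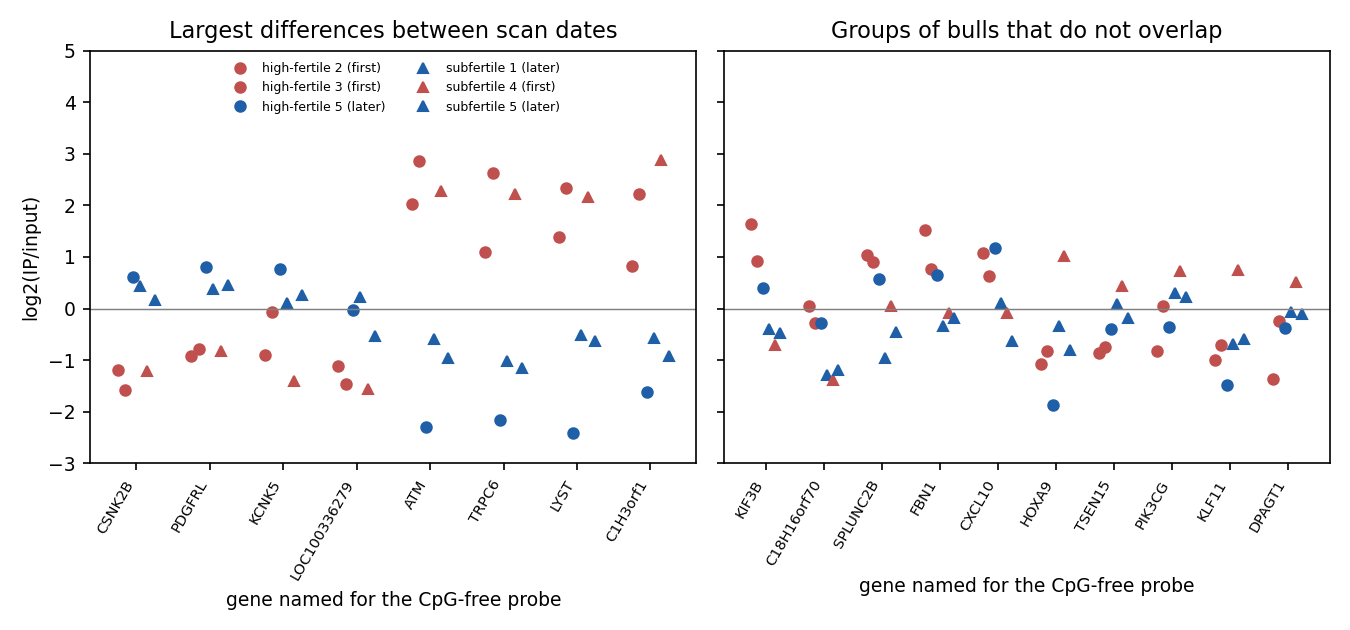
Log2(IP/input) of single CpG-free probes (vertical axis) by named gene (horizontal axis), 1 point per bull, red for the first and blue for the later scan dates, circles for high-fertile and triangles for subfertile bulls. The left panel holds probes with large differences between dates (ATM from -2.29 to 2.86), and the right panel probes whose fertility groups do not overlap, such as KIF3B with 0.39 to 1.64 in high-fertile and -0.71 to -0.39 in subfertile bulls.

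Over all 6 bulls, 248 CpG-free probes (5.33%) were called above the array median by limma (mean against 0, adjusted over all tested probes), where 3.53% of all tested probes were, and 458 (9.85%) below, where 17.6% were. Centred on the tested probes, the CpG-free counts were 537 above and 224 below. Over all tested probes they moved from 3904 above and 19527 below to 10198 and 10782. The balance of the 2 directions thus moved with the centring over the whole array, and in CpG-free probes it turned. Without high-fertile bull 5, subfertile bull 1 or subfertile bull 5 the CpG-free calls above were 151, 125 and 86, and those below 280, 300 and 191. For these settings the share over all tested probes is not given.

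The highest named levels rested on the first date. LRRC7, a scaffold protein of synapses, read 2.94, 2.88 and 3.16 there and 0.19, 1.16 and 1.16 on the later dates (high-fertile 5, subfertile 1 and 5), with a mean of 1.92 ± 0.37 (SE; limma adjusted p = 0.0081). APCS, the serum amyloid P component, had a mean of 1.75 ± 0.47, ANKRD17 1.67 ± 0.47, SLC13A1, a sulfate transporter, 1.49 ± 0.26 and ELOVL6, a fatty acid elongase, 1.49 ± 0.48 (limma adjusted p from 0.0061 to 0.048). All 5 had lower means on the later dates. With normexp their levels were 1.02, 0.84, 0.77, 0.63 and 0.55. By contrast, the highest probe without a gene name, at chr29:49420063-49420122, was high in every bull, with 0.66, 1.24 and 1.99 in high-fertile bulls 2, 3 and 5 and 1.34, 1.82 and 1.5 in subfertile bulls 1, 4 and 5. It lay in a tile of 16 other probes within 300 bp with 2 CpGs each on average.

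The lowest named levels were at PIH1D2 (mean -1.91 ± 0.33 SE), NOP14, a ribosome assembly factor (-1.59 ± 0.33), HSPA8, a constitutive heat shock protein (-1.44 ± 0.16), TARSL2, a threonyl-tRNA synthetase (-1.27 ± 0.17), and AARSD1 (-1.26 ± 0.34), with limma adjusted p from 0.0033 to 0.026. HSPA8 was below 0 in each bull, with -0.90, -1.75 and -1.50 in the high-fertile and -1.24, -1.37 and -1.87 in the subfertile bulls. Its IP signal was well above background in subfertile bull 1 alone, as was that of NOP14. That of PIH1D2 was so in subfertile bulls 1 and 5, that of AARSD1 in high-fertile bull 3 and subfertile bull 1, and that of TARSL2 in 4 bulls. For PIH1D2, NOP14 and HSPA8 no high-fertile array had IP signal well above background, so their levels there are only bounds. In subfertile bull 1, whose headers name the different extraction protocol, 99.6% of CpG-free probes had IP signal well above background. In the other bulls it was 50.3% to 91.4%, so this mark sets few probes apart in subfertile bull 1. With normexp the 5 levels were -0.52, -0.35, -0.13, -0.43 and -0.34, and those of NOP14, HSPA8 and AARSD1 were no longer called by limma (adjusted p = 0.051, 0.28 and 0.054).

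Stretches of DNA without any CpG were in places tiled densely, and 26 loci held at least 10 overlapping CpG-free probes. The densest was at chr19:23163220-23163361, with 23 CpG-free probes in 142 bp, some of them named MIR132, a microRNA gene. Its probe means were 0.01, 0.01 and 0.07 in high-fertile bulls 2, 3 and 5 and 0.40, 0.06 and 0.12 in subfertile bulls 1, 4 and 5, which is at or slightly above the array median. The lowest of the 26 was at chr1:74226556-74226651, with -0.88, 0.07 and -1.71 in the high-fertile and -0.99, -0.65 and -1.33 in the subfertile bulls. NDUFAF3, an assembly factor of respiratory complex I, was the lowest with a name, at -0.33, -0.65 and -0.92 and -0.66, -0.76 and -1.15, below 0 in 6 of 6 bulls. The highest, at chr6:74459465-74459565, read -0.29, -0.13 and 0.17 on the first date versus 1.39, 0.90 and 0.85 on the later dates, the opposite order of dates to that of the isolated probes.

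Genes with at least 3 named CpG-free probes were AHCYL1, ATP5D, GABBR1, MIR132, NRN1 and TBCB. AHCYL1, whose 3 isolated probes spread over 3 loci, averaged 0.67 ± 0.52 on the first and -0.44 ± 0.23 on the later dates (SD, n = 3), and GABBR1, a subunit of the GABA-B receptor, 0.34 ± 0.33 and -0.31 ± 0.11. TBCB, a tubulin-folding cofactor in a dense tile, ran the other way with -0.36 ± 0.59 and 0.56 ± 0.14. NRN1, the neurite growth protein neuritin, was below 0 in each bull, between -0.93 and -0.15, and ATP5D, a subunit of ATP synthase, between -0.38 and -0.12. MIR132 lay between -0.05 and 0.39.

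Simple repeats are a sequence feature that the choice of probes did not use. A run of at least 4 units of CA or TG (CACACACA or TGTGTGTG) was found in 99 tested CpG-free probes (2.13%), in 1.15% of CpG-bearing and in 0.976% of all probes. The longest run among the members stood at PTGIR, the prostacyclin receptor gene, with 9 units in capitals.
PTGIR, chr18:53552615-53552674: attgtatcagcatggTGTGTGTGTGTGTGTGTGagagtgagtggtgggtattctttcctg

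This probe read 0.98, 0.62 and 0.59 in high-fertile bulls 2, 3 and 5 and 0.34, 1.13 and 0.21 in subfertile bulls 1, 4 and 5, above the median in each. The 99 probes stood above the other CpG-free probes in 6 of 6 bulls, by 0.17 ± 0.10. With normexp the difference was -0.02, and without the input requirement it was -0.28, so the direction did not hold. A run of at least 4 units of GA or TC, looked at after the data were seen, was held by 56 CpG-free probes (1.20%, against 0.794% of all probes), with a difference of 0.26 ± 0.10, positive in 6 of 6 bulls. It was not computed under other processing. The 50 tiled ones had medians of -0.03, 0.30 and 0.19 on the first date versus 0.12, 0.28 and 0.36 on the later dates. The 6 isolated ones stood at 0.61, 0.21 and 0.60 versus -0.58, -0.17 and -0.81. By the count of TpG plus CpA pairs, the highest of 3 classes, with more than 11 pairs, minus the lowest, with at most 9, gave -0.06 ± 0.03 (SD, n = 6), negative in 6 of 6 bulls.

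The study's own comparison was between high-fertile and subfertile bulls. With limma, 0 of 4650 CpG-free probes were called at an adjusted p under 0.05, where 0% of all 110686 tested probes were. At an unadjusted p under 0.05 there were 114 (2.45%), where 1.84% of all tested probes were. With the scan date as a block 0 CpG-free probes were called, where 0% of all were, and 219 (4.71%) had an unadjusted p under 0.05, where 3.48% did. The median difference over CpG-free probes, high-fertile minus subfertile, was 0.04, and 0.01 with the date as a block. For isolated probes it was 0.23 and then -0.06, where the first date held 2 of 3 high-fertile and 1 of 3 subfertile bulls.

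Within the first date alone 0 CpG-free probes were called by limma (0% of all tested probes, 221 at an unadjusted p under 0.05), and 0 by the test of a different group effect on the 2 dates (0% of all, 324 at an unadjusted p under 0.05). Within the later dates 3 CpG-free probes were called, where 0.0307% of all tested probes were, each resting on high-fertile bull 5 as the only bull of its group. The probe at chr25:4573815-4573874 read 3.19 in that bull against 0.63 and 0.74 in subfertile bulls 1 and 5. The probes at chr9:97969428-97969487 and chr12:84899874-84899933 read -2.76 and -2.15 in it, against -0.25 and -0.48 and against 0.18 and 0.68, and the IP signal of both was not well above background in that bull. The chr12 probe lay in a locus of 11 overlapping CpG-free probes, itself included. The means of that locus were -0.04 in high-fertile bull 5 against 0.08 and 0.13 in subfertile bulls 1 and 5.

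Without a model, the 3 high-fertile bulls lay wholly above the 3 subfertile bulls at 188 CpG-free probes (4.04%), where the share of all tested probes was 2.58%, and wholly below at 101 (2.17%), where it was 3.2%. KIF3B, a motor subunit of kinesin-2, had the smallest unadjusted p among the named ones, with 1.64, 0.93 and 0.39 in high-fertile bulls 2, 3 and 5 and -0.39, -0.71 and -0.47 in subfertile bulls 1, 4 and 5. Its difference was 1.52 ± 0.36 (SE), 1.41 with the date as a block and 1.19 to 1.81 without any single bull, and its limma adjusted p was 1.0.

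C18H16orf70 (1.12 ± 0.29), SPLUNC2B (1.29 ± 0.35), FBN1, the microfibril protein fibrillin-1 (1.18 ± 0.33), and the chemokine CXCL10 (1.16 ± 0.33) followed in the same direction. The IP signal was above background in 5 of 6 bulls at KIF3B, 3 at C18H16orf70, 6 at SPLUNC2B, 4 at FBN1 and 2 at CXCL10. In the other direction stood the developmental regulator HOXA9 with -1.07, -0.82 and -1.87 in the high-fertile and -0.34, 1.01 and -0.80 in the subfertile bulls. The HOXA9 IP signal was well above background in subfertile bulls 1 and 5 alone. Its difference of -1.21 ± 0.48 thus rests on bounds in the high-fertile bulls and in subfertile bull 4, the one at 1.01. TSEN15, a tRNA splicing subunit (-0.78 ± 0.31), PIK3CG, a catalytic subunit of phosphoinositide 3-kinase (-0.81 ± 0.33), the transcription factor KLF11 (-0.89 ± 0.43) and DPAGT1, an enzyme of N-glycosylation (-0.78 ± 0.38), also lay wholly lower. All 10, KIF3B included, had limma adjusted p of 1.0. With normexp each kept its sign and was at least 1.5 times smaller. The differences were then 0.41 at KIF3B, 0.27 at C18H16orf70, 0.54 at SPLUNC2B, 0.36 at FBN1 and 0.34 at CXCL10. In the other direction they were -0.18 at HOXA9, -0.39 at TSEN15, -0.14 at PIK3CG, -0.10 at KLF11 and -0.24 at DPAGT1. At HOXA9 and TSEN15 an overlapping CpG-bearing probe began 5 bases earlier, and its fertility groups overlapped. For HOXA9 it read 0.13, -0.77 and -1.28 in the high-fertile and -0.40, -0.25 and -0.56 in the subfertile bulls. For TSEN15 it read 0.15, 0.28 and -0.08 against -0.23, 0.06 and -0.19. Another CpG-free HOXA9 probe also overlapped, with 0.28, -0.44 and -0.79 against -0.42, 0.54 and -1.07.

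Among probes without a gene name, which include smaller unadjusted p than any named one, that at chr2:71328129-71328188 differed by 1.74 ± 0.42, with 1.80, 2.32 and 2.58 in the high-fertile and 0.40, 1.28 and -0.22 in the subfertile bulls, and IP signal above background in 6 of 6. The probe at chr29:49286876-49286935 differed by 1.28 ± 0.30, with IP signal above background in 4 bulls. In the other direction the probes at chr3:123177417-123177476 and chr17:15359496-15359555 differed by -1.29 ± 0.33 and -1.05 ± 0.36 (all with limma adjusted p of 1.0). The IP signal of the chr3 probe was well above background in subfertile bulls 1 and 5 alone, and in no high-fertile bull. With normexp these 4 were 0.79, 0.47, -0.27 and -0.59. The chr17 probe lay in a locus of 10 overlapping CpG-free probes, itself included. The means of that locus were -0.53, 0.10 and -0.04 in the high-fertile and -0.04, 0.15 and 0.07 in the subfertile bulls, so its groups overlapped.

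Gene groups are given beside the 978 named probes as a whole, whose median later-minus-first difference was -0.70, with 11 called higher and 217 lower. The medians of the 10 lists ran from -0.90 to -0.06, and no list was tested against the named probes. Solute carriers (23 probes) had a median of -0.90 with 0 higher and 5 lower calls, among them the monocarboxylate transporter SLC5A8 at -2.03. Ion channels (12 probes) had -0.88 with 1 and 3, ribosomal and translation initiation genes (8) -0.77 with 0 and 2, including RPS6 at -1.17, and sperm, meiosis and germline genes (7) -0.72 with 0 and 1. Chromatin and DNA methylation enzymes (11) had -0.66 with 0 and 2, among them ARID4B at -2.26, imprinted genes (2) -0.62 with 0 and 0, and homeobox and other developmental factors (17) -0.57 with 0 and 3. The medians nearest 0 were those of 3 lists. Zinc finger proteins (23) had -0.31 with 1 and 6, cell adhesion and axon guidance genes (10) -0.26 with 0 and 1, the integrin subunit ITGAV at -2.05, and microRNA genes (17) -0.06 with 0 and 1.

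Between fertility groups 0 probes of any of the 10 lists were called by limma, as of all named CpG-free probes. Of these 978 named probes 22 (2.25%) had an unadjusted limma p under 0.05, where 1.84% of all tested probes did. Differences were above 0 at 639 of all 978 named CpG-free probes. They were so at 11 of 12 probes of ion channels, 8 of 10 of cell adhesion and axon guidance genes, 6 of 8 of ribosomal and translation initiation genes and 2 of 2 of imprinted genes. The lists of lower share lay between 6 of 11 (chromatin and DNA methylation enzymes) and 11 of 17 (homeobox and other developmental factors). In the sperm, meiosis and germline list 6 of 7 differences were above 0. Its smallest unadjusted p was at SPAG7, with 0.79, 0.37 and 0.24 in the high-fertile and -0.16, 0.12 and -0.84 in the subfertile bulls. Of the imprinted genes, RASGRF1 read 0.11, 0.21 and 0.18 in the high-fertile and -0.64, 0.03 and -0.76 in the subfertile bulls, so that its groups did not overlap, and PLAGL1 read -0.33, 0.98 and -1.10 against -0.63, -0.11 and -0.24, which overlapped. UHRF1, a protein that guides maintenance methylation, read -0.22, 0.32 and -0.47 against -0.77, -0.05 and -0.93, also with overlap.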

How the data were processed

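Each of 6 arrays carried 177440 probes and 3440 control spots, which were left out. Per the file headers, the deposited scanner files hold spot intensities from Agilent Feature Extraction 10.7.3.1, background-subtracted, detrended and dye-normalized, and a log10 ratio of IP over input. The authors' deposited series table holds that ratio on the log2 scale, as its values show. For the coordinates the genome build was not given in sources used here.

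From the processed intensities, log2(IP/input) was computed and centred on each array's median over non-control probes, with no loess or quantile step. Probes with input well above background on 6 arrays and no non-uniformity flag were tested with limma 3.58.1 under R 4.3.3 (eBayes after lmFit, 2-sided p adjusted by Benjamini-Hochberg over all tested probes, threshold 0.05). The fits were tested on simulated data. Python 3.11.15 with pandas 2.3.3, numpy 2.4.6 and matplotlib 3.10.9 did the rest. Gene names are the array's, looked up in the RefSeq gene table of buffalo for names only. The number of arrays limits the precision, and p-values measure the spread between these 6 bulls. Alternatives were the input filter, the flag, normexp with offset 50, the centring, the deposited table, an IP filter, other distances, averaged spots, and leaving out each bull. Isolated against tiled probes, calls by direction, values by date, pairs, distances, brightness, GA repeats and both colours apart were added after the data were seen.

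The members, gene lists and naming rule were chosen with earlier results of these data known. The rule names, among CpG-free probes with a gene name, up to 5 per direction whose fertility groups do not overlap, by unadjusted p, the 5 highest and 5 lowest levels, up to 4 per direction called between dates, by size, and genes with at least 3 such probes. It adds up to 2 probes without a name per direction. Each gene list may name up to 3 members. Of per-sample columns, 0 were left unused.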

Additional observations from a re-analysis of the deposited data

Results flagged for a closer look

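The following differences had opposite signs on the 2 sets of scan dates, with every bull of the first date on one side of 0 and every bull of the later dates on the other. The difference between dates in these summaries was not tested. CpG-free minus CpG-bearing probes gave 0.29 on the first and -0.074 on the later dates, and 0.28 and -0.072 when averaged within GC classes. By class, it was 0.29 and -0.20 under 40% GC, 0.34 and -0.095 from 40% to under 50% GC, and 0.23 and -0.049 from 50% to under 60% GC. Isolated minus tiled CpG-free probes gave 0.41 and -0.46, and isolated CpG-free minus isolated CpG-bearing probes 0.48 and -0.32. These are log2(IP/input) values, each the mean of 3 bulls. The later-date value of CpG-free minus CpG-bearing probes was within 1 SD of 0 with normexp (-0.018 ± 0.027) and without the input requirement (-0.019 ± 0.11). In the dimmest input class isolated CpG-free minus isolated CpG-bearing probes gave 0.083 ± 0.12 on the first date, with 1 bull below 0.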

How the results depend on the processing

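No paired analysis was made, because the labels pair no high-fertile bull with a subfertile one. Replicate number 5 occurs in both groups but stands for different bulls. No called value changed direction, but 9 of 155 alternatives of the untested level summaries changed sign. Over 6 bulls, isolated minus tiled turned from -0.027 to 0.46 without the input filter, 0.034 with normexp, 0.15 with IP above background on 6 arrays, and 0.042 to 0.084 without high-fertile bull 5 or subfertile bull 1 or 5, all within 1 SD of 0. Isolated CpG-free minus isolated CpG-bearing turned from 0.078 to -0.044 without high-fertile bull 3. The other 2 were the CA repeats, below. For the 14 single probes compared between fertility groups 0 of 126 alternatives changed sign and 17 shrank by over 1.5 times, among them all 14 with normexp. For every change below the cause was not tested, and settings with other filters also test other numbers of probes. Apart from the centring, the counts of calls below are of CpG-free probes alone, without the share over all tested probes. They do not show whether a change was particular to CpG-free probes.

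Without the input filter, CpG-free calls between dates were 904 in all, 16 higher and 888 lower, 698 of the lower ones isolated, and level calls were 2774 above and 275 below. In the same setting CpG-free minus CpG-bearing was 0.51, with 1.03 on the first and -0.019 on the later dates, isolated minus tiled was 1.06 and -0.14, neighbours gave -0.42, CA repeats -0.28, TpG plus CpA -0.31, and IP signal was above background in 33.0% of probes. With normexp, calls between dates were 1236 in all with 739 higher, level calls 130 above and 778 below, CpG-free minus CpG-bearing 0.21 on the first and -0.018 on the later dates, isolated minus tiled -0.16 on the later dates, neighbours -0.12 and CA repeats -0.023. Centred on the tested probes, 32 were higher on the later dates (1115 over all tested probes). Level calls in that setting were 537 above and 224 below, against 10198 and 10782 over all tested probes. With IP above background on 6 arrays, 285 were higher, 173 isolated probes lower and 223 below the array median, CpG-free minus CpG-bearing was -0.048 on the later dates, and isolated minus tiled was 0.64 and -0.33. On the later dates alone a single high-fertile bull was left, so no fertility calls are counted for that setting.

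Leaving out 1 bull gave 0 to 1076 calls between dates, 0 to 368 higher, 0 to 708 lower, 0 to 461 isolated lower, 86 to 207 above and 191 to 423 below the array median. The IP signal was above background on all 6 arrays in 43.6% of CpG-free probes, so the ratios of the others rest in part on spots too dim to measure.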
